A study of Mus musculus with 2 samples.

Results

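Periportal (PP, zone 1) hepatocytes were taken as the 514 cells with the lowest zone score among 1546 hepatocytes, out of 6116 liver cells in 2 single-cell libraries. A cell was kept as a hepatocyte when mitochondrial transcripts made up at most 10% of its counts, when its total lay between 8000 and 60000 counts, and when 9 genes of other liver cells (Ptprc, Siglec1, Fyb, Ptprb, Egfl7, Reln, Pdgfrb, Epcam and Krt19) summed to under 3 per 10000 counts. The zone score was the log2 of the summed counts of Glul, Oat, Cyp1a2 and Cyp2e1, plus 1, over those of Hal, Sds, Gls2 and Cyp2f2, plus 1. Hepatocytes of each library were ranked by this score and cut into equal parts. The part with the lowest scores gave 267 PP hepatocytes in the library labelled AEG-1DMAC and 247 in the library labelled AEG-1fl/fl. The part with the highest scores, of the same numbers of cells, is called pericentral (PC, zone 3) here.

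Blood enters the liver lobule at the portal tracts and leaves at the central vein, so hepatocytes along this path see falling oxygen and nutrients and rising Wnt signals. PP hepatocytes are known for urea synthesis, gluconeogenesis, amino acid breakdown and the secretion of plasma proteins. PC hepatocytes are known for glutamine synthesis and for the cytochromes that clear drugs and xenobiotics.

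Livers for both libraries were taken at an age of 27 weeks from mice that were put on a high-fat, high-sugar diet (HF/HSD) at 7 weeks and stayed on it for 20 weeks. The library labelled AEG-1DMAC stands for mice with floxed AEG-1 (gene symbol Mtdh) and Cre recombinase expressed from the Lyz2 locus, which is active in myeloid cells and not in hepatocytes. The library labelled AEG-1fl/fl stands for littermates that carry the same floxed alleles without deletion in myeloid cells, on the C57BL/6/J background. No unmodified mice and no mice on control diet were among these libraries, and neither the sex of the mice nor the number of livers behind a library was stated. With 1 library per genotype no difference between genotypes could be tested, and a difference between libraries cannot be told apart from one between mice, tissue pieces or preparations. Values are therefore given side by side as counts and as CPM, the counts scaled to a total of 1000000 over the summed cells, each with an exact Poisson 95% interval. Log2 ratios of the library labelled AEG-1DMAC over that labelled AEG-1fl/fl have 95% Clopper-Pearson intervals from the pair of counts. All these intervals cover counting error only. In every pair of values below the library labelled AEG-1DMAC comes first, and "higher" or "lower" without further words refers to it.

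The genes that define the PP zone lie on several chromosomes of the GRCm38 assembly, Hal at chr10:93488768-93519304, Sds at chr5:120476526-120483932, Gls2 at chr10:128194457-128210004, Cyp2f2 at chr7:27119909-27133660 and Aldh1b1 at chr4:45799022-45804604, all on the plus strand. For 3 of these 5 genes the 250 bases before the RefSeq start (GRCm38.p6) are shown, with those of the PC gene Cyp2e1 for comparison, because these are the genes that the zone name rests on. The windows are chr10:93488518-93488767, chr7:27119705-27119954, chr4:45798772-45799021 and chr7:140763569-140763818, each on the plus strand. Capitals mark 2 motifs on either strand, the TATA box TATAAA, where general transcription factors assemble, and CTTTGA, the core bound by the Wnt effectors TCF and LEF.
Hal: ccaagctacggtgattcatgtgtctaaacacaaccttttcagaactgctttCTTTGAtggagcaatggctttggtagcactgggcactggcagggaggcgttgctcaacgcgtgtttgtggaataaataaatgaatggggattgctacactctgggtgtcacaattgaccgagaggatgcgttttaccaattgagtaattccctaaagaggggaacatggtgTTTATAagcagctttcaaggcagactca
Cyp2f2: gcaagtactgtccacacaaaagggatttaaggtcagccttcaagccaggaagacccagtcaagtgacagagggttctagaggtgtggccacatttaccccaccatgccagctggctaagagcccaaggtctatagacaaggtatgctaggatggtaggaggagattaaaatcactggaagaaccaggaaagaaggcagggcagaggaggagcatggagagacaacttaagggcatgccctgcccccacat
Aldh1b1: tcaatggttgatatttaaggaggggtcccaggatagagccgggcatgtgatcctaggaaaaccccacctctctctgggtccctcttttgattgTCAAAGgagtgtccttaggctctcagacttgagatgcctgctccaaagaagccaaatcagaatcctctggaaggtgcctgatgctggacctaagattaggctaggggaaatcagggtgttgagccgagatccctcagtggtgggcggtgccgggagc
Cyp2e1: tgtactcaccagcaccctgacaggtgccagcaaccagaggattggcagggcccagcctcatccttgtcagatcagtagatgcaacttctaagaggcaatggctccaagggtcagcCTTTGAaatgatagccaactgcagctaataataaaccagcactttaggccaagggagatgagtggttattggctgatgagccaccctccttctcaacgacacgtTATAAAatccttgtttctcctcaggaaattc
The TCF/LEF core stood once each in the windows of Hal, Aldh1b1 and Cyp2e1, so genes of both zones held it, and it was found in 13.8% of all 32851 promoter windows of this length. A TATA box stood in the windows of Hal and Cyp2e1 and in 12.4% of all windows. Neither motif was in the Cyp2f2 window. Such a match is a description of letters and not a sign of binding.

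The deposited matrices listed 19059 genes, summing to 79589511 counts in 2581 cells and 90440089 counts in 3535 cells. Of these cells, 2571 and 3508 passed the mitochondrial limit, 1165 and 1324 were also within the limits on total counts, and 803 and 743 were also below the limit on genes of other cells. No doublets were removed beyond the upper limit on counts. The libraries shared 10 cell barcodes, of which 0 belonged to PP hepatocytes. The targeted gene went against the labels. In cells with at least 5 counts per 10000 of Siglec1, Adgre1 and Csf1r together (420 and 1005 macrophage check cells), Mtdh (chr15:34082694-34145624, plus strand) stood at 115 CPM (105 to 124) from 584 counts in the library labelled AEG-1DMAC and at 38.2 CPM (34.4 to 42.2) from 383 counts in that labelled AEG-1fl/fl. Whether the Mtdh probes lie within the deleted part was not checked. Every direction below is therefore tied to the label alone. In PP hepatocytes, which the Cre driver does not target, Mtdh had 419 and 338 counts, 61.7 (55.9 to 67.9) and 54.5 (48.8 to 60.6) CPM, a log2 ratio of 0.18 (-0.03 to 0.39).

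PP hepatocytes of the libraries were similar in depth. They held 6790568 and 6207179 counts in all, with a median of 21487 counts per cell (range 8075 to 59820) in the library labelled AEG-1DMAC and 19952 (8004 to 58799) in that labelled AEG-1fl/fl. A median of 4372 and 4403 genes were counted per cell, and mitochondrial transcripts made up a median of 2.97% and 2.83%. Alb, the plasma albumin transcript, was counted in all 267 and 247 cells. The zone score ran from -5.33 to 0.93 (median -1.05) and from -5.93 to 0.42 (median -1.87). The last cell inside and the first cell outside scored 0.930 and 0.937 in the library labelled AEG-1DMAC, and both 0.415 in the other, where a tie fell on the limit. Scores were continuous across the limit, with 16 and 19 PP hepatocytes within 0.25 of it. Because the cut was made in each library, 34 PP hepatocytes of the library labelled AEG-1DMAC scored above the last one of the other library.

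**Figure D1:**
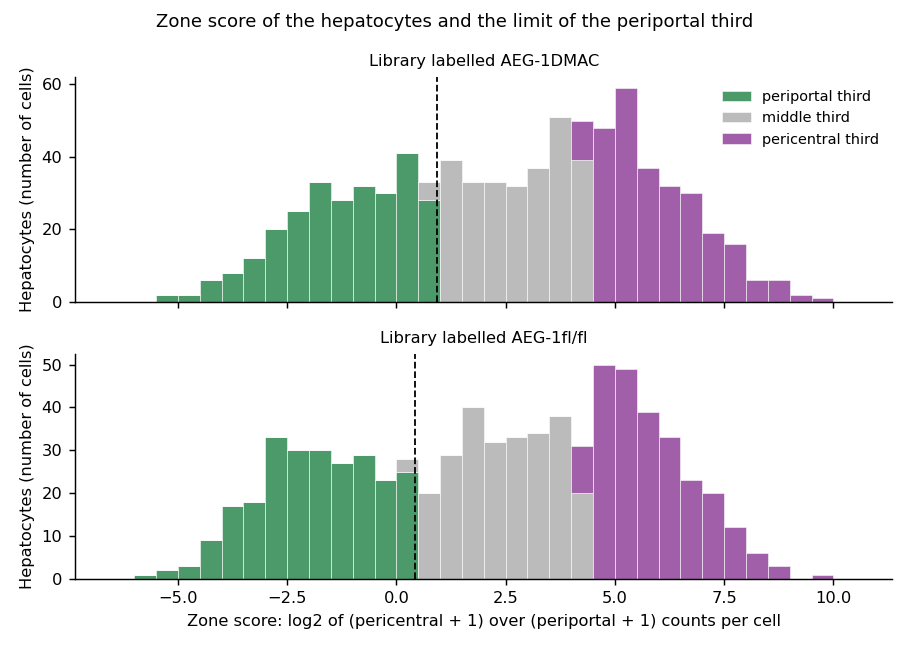
Number of hepatocytes (vertical axis) by zone score (horizontal axis, log2, in steps of 0.5) in each library, coloured by the part of the ranking they fell in, with a dashed line at the last PP hepatocyte. The score has no gap at the limit, which lies at 0.93 in the library labelled AEG-1DMAC and at 0.42 in that labelled AEG-1fl/fl.

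The label was checked against its markers. The 4 PP genes of the score were each far above their levels in PC hepatocytes, which the choice of the cells fixed. Sds, serine dehydratase, stood at 1014 (991 to 1039) and 987 (963 to 1012) CPM in PP hepatocytes and at 41.4 and 22.2 CPM in PC hepatocytes. Hal, histidine ammonia-lyase, stood at 308 (295 to 322) and 216 (205 to 228) CPM against 16.4 and 9.02 CPM. The glutaminase Gls2, which frees ammonia from glutamine, stood at 250 (238 to 262) and 194 (184 to 206) CPM against 26.4 and 8.43 CPM. Cyp2f2, a cytochrome of the PP zone, stood at 1173 (1147 to 1199) and 1364 (1335 to 1393) CPM against 67.0 and 31.9 CPM. Aldh1b1, a mitochondrial aldehyde dehydrogenase that the score did not use, followed them. It had 1500 and 1464 counts, 221 (210 to 232) and 236 (224 to 248) CPM, in PP hepatocytes, 54.7 and 36.0 CPM in the hepatocytes between the zones and 15.4 and 10.2 CPM in PC hepatocytes. This marker outside the score had its highest level in the cells that carry the label. It was chosen with earlier results of these data known, so it is no independent check.

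Transcripts of hepatocytes were also counted in cells that should lack them. In cells with at least 3 counts of Ptprc per 10000 (267 and 675 leukocyte check cells, with medians of 4943 and 4831 counts against 21487 and 19952 in PP hepatocytes), Alb stood at 27302 and 15948 CPM. PP hepatocytes held 88224 (88001 to 88448) and 73095 (72882 to 73308) CPM of Alb. In the check cells Sds was at 139 and 60.0 CPM, Hal at 32.5 and 12.7 CPM and Cyp2f2 at 233 and 114 CPM, all below PP hepatocytes of the same library. The PC genes of the score were not so separated. Oat stood at 286 and 73.9 CPM in the check cells but at 129 and 28.5 CPM in PP hepatocytes, and Cyp2e1 at 1265 and 693 CPM in the check cells and 1264 and 748 CPM in PP hepatocytes. The check cells are shallower, and levels of PC genes were not even among PP hepatocytes. Over 3 equal steps of rank from the PP end Oat went from 63.1 through 114 to 196 CPM and from 18.1 through 20.8 to 45.3 CPM, and Cyp2e1 from 367 through 1027 to 2198 CPM and from 268 through 567 to 1361 CPM, an order that the score fixed. The part of RNA from other cells in these levels was not tested.

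Markers of other cells were also counted in PP hepatocytes, and their sums differed widely from cell to cell. The 10 macrophage markers, all counted in both libraries, summed to 682 and 545 CPM over the PP hepatocytes, with per-cell sums of 0 to 97.2 (median 3.87) and 0 to 102 (median 3.14) per 10000 counts. The 7 endothelial markers in the files summed to 88.8 and 52.4 CPM, with per-cell sums of 0 to 10.5 and 0 to 4.81 per 10000. The 7 stellate cell markers summed to 193 and 261 CPM (per cell 0 to 58.7 and 0 to 62.3 per 10000). The 6 cholangiocyte markers summed to 105 and 432 CPM (0 to 16.3 and 0 to 76.6 per 10000), of which Spp1 made up 85.3 and 402 CPM and Sox9 19.1 and 22.7 CPM. Lymphocyte markers summed to 13.7 and 24.3 CPM, with the B-cell gene Ms4a1 at 0 in the library labelled AEG-1fl/fl, and neutrophil markers to 9.57 and 19.0 CPM. The sums of macrophage and endothelial markers were higher, and those of the other 4 lists lower, in the library labelled AEG-1DMAC.

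Across all genes with at least 200 counts over PP and PC hepatocytes in each library (6796 genes), 49 (0.721%) were at least 2-fold higher in PP than in PC hepatocytes in both libraries and 117 (1.72%) at least 2-fold lower. These values describe cells that were sorted on the same counts, and nothing is inferred from them. The median gene was lower in PP hepatocytes, at a log2 ratio of -0.32 in the library labelled AEG-1DMAC and -0.17 in the other, while Alb alone stood at 88224 CPM in the first against 44858 CPM in its PC hepatocytes. With ratios centred on those medians the split became 69 higher and 81 lower. Outside the genes of the score, the PP to PC ratio was highest for Sdsl, a homologue of serine dehydratase (71.1 and 68.8 CPM against 2.61 and 2.51 CPM, log2 4.77 in both libraries). Next came Aldh1b1 (3.84 and 4.53), Slc3a1, a subunit of the cystine and basic amino acid transporter (3.35 and 4.09), the hydroxysteroid dehydrogenase Hsd17b6 (3.65 and 3.31), and Etnppl, which breaks down phosphoethanolamine (3.25 and 3.60). Among the lowest were Cyp2c38 (-4.65 and -4.85), the ammonium transporter Rhbg (-4.37 and -4.32), the glutamate transporter Slc1a2 (-5.17 and -4.19), the phosphatase Lhpp (-4.35 and -4.10), and the Wnt targets Tbx3 (-3.98 and -3.93) and Axin2 (-4.04 and -3.57).

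A list of 19 other PP markers, from textbook zonation and outside the score, had a median PP to PC log2 ratio of 1.50 and 1.77. Of its members 17 and 18 were above 0, and 12 were at least 2-fold higher in both libraries. Hsd17b13, a lipid droplet enzyme, stood at 1646 (1616 to 1677) and 1682 (1650 to 1714) CPM against 265 and 296 CPM. In the urea cycle, Ass1 (argininosuccinate synthase), Cps1 (carbamoyl phosphate synthetase), Arg1 (arginase) and Otc (ornithine transcarbamylase) had log2 ratios of 1.60 and 1.96, 1.09 and 1.97, 1.50 and 2.01, and 1.03 and 1.32. The mitochondrial aspartate-glutamate carrier Slc25a13, in contrast, stood lower in PP hepatocytes (-0.62 and -0.39). Pck1, which controls gluconeogenesis from oxaloacetate, was at 2761 (2721 to 2800) and 3553 (3506 to 3600) CPM against 1522 and 1646 CPM. G6pc, the last enzyme of glucose release and itself on the PP list, went the other way (202 and 381 CPM against 418 and 489 CPM, log2 -1.05 and -0.36). Of 23 acute-phase genes 19 and 21 were above 0 (medians 0.55 and 0.40), with hemopexin, Hpx, at 10910 and 12159 CPM against 4653 and 6033 CPM. The hepcidin gene Hamp, placed by the study in the midlobular zone, was at 292 (279 to 305) and 411 (395 to 427) CPM in PP hepatocytes and at 94.0 and 65.5 CPM in PC hepatocytes. Fatty acid oxidation genes were mostly lower in PP hepatocytes (2 and 0 of 24 above 0, medians -0.45 and -0.44). The median over all genes was also below 0, at -0.32 and -0.17, so part of this shift was shared by genes in general.

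PP hepatocytes were not uniform along the score. Each library's hepatocytes were cut into 9 equal bins of rank, of which the first 3 are the PP hepatocytes (89 cells a bin in the library labelled AEG-1DMAC, and 83, 82 and 82 in the other). From the first to the third of these bins Sds went from 1555 through 909 to 664 CPM and from 1544 through 891 to 551 CPM. Aldh1b1, not part of the score, went from 318 through 223 to 140 CPM and from 371 through 204 to 138 CPM. The urea cycle gene Ass1 also had its highest level at the PP end in both libraries (3989, 3302 and 3199 CPM, and 3051, 2311 and 1992 CPM), while Hsd17b13 differed less (1783, 1711 and 1479 CPM, and 1874, 1758 and 1433 CPM). The fall of Sds away from the PP end was fixed by the score. Aldh1b1, Ass1 and Hsd17b13, outside the score, also fell within the PP hepatocytes. Igfbp2, a secreted binding protein of insulin-like growth factors, ran the opposite way, and the libraries differed most at the PP end. It stood at 36.6, 148 and 209 CPM in the library labelled AEG-1DMAC and at 154, 166 and 222 CPM in that labelled AEG-1fl/fl. Spp1, which encodes osteopontin, had 130, 62.5 and 68.5 CPM in the first library and 459, 394 and 356 CPM in the second. Sult1e1, the estrogen sulfotransferase, was even over the 3 bins of the first library at 46.3, 43.2 and 45.3 CPM and then declined to 7.17 CPM in the last bin of all 9, while the other library held 1.95, 2.03 and 1.83 CPM.

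**Figure D2:**
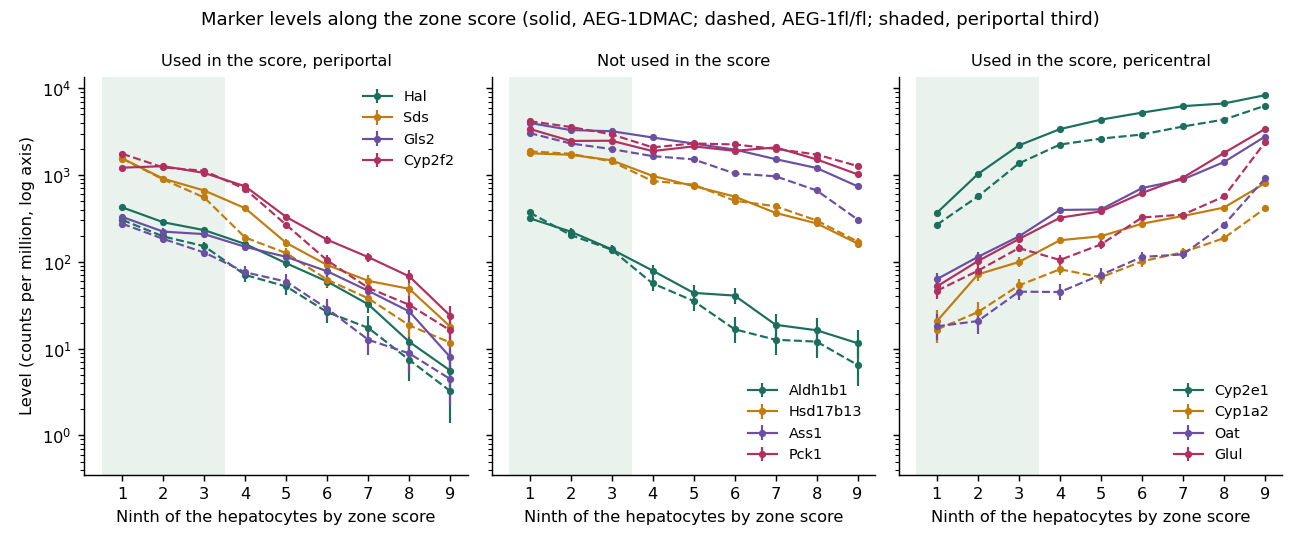
Level in CPM (vertical log axis) of 12 marker genes over 9 bins of hepatocytes ranked by zone score (horizontal axis, PP end at the left), with solid lines for the library labelled AEG-1DMAC, dashed lines for that labelled AEG-1fl/fl, Poisson 95% bars and the PP hepatocytes shaded. Sds starts at 1555 and 1544 CPM at the PP end, and Aldh1b1, which the score did not use, at 318 and 371 CPM.

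Variation from cell to cell was measured after each cell was thinned to 8000 counts. Over 2087 genes with a mean of at least 0.5 counts per cell in both libraries, the variance was a median of 1.33 and 1.36 times the mean, where pure counting error would give 1. The genes highest by this measure coded for secreted and lipid-handling proteins. Alb had a variance of 193 and 187 times its mean, with a lowest cell of 50 and 51, a median of 697 and 553 and a highest cell of 1449 and 1577 counts. Scd1, which desaturates fatty acids, had 128 and 133 times its mean, from 8 and 8 through medians of 184 and 176 to 891 and 922 counts. These ranges of the libraries overlapped almost completely. The apolipoprotein genes Apoe (101 and 84.5), Apoa2 (45.4 and 40.8) and Apoa4 (29.3 and 41.3) followed, then Hpx, Hp, Trf, Mup20 and Ttr, all plasma or urinary proteins made by the liver. Genes of the score stood lower by this measure, with Sds at 8.65 and 7.65 and Cyp2f2 at 3.51 and 4.82 times the mean. Variance over mean was not adjusted for level, and it rises with level at the same relative spread. The order is therefore no ranking of relative spread.

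Between libraries most genes of PP hepatocytes differed little. Of 6657 genes with at least 200 counts in PP hepatocytes, 35 (0.526%) were at least 2-fold higher and 47 (0.706%) at least 2-fold lower in the library labelled AEG-1DMAC. The median log2 ratio was -0.05, with 2808 genes above and 3849 below 0. With genes down to 50 counts (9592 genes) these shares were 0.844% and 1.87%. Higher and lower calls rest on a size rule alone, so each is a description of these libraries. Whether the probes tell close relatives apart (within the Cyp2c, Cyp4a, Acot, Orm, Saa and Selenbp families) was not checked.

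**Figure D3:**
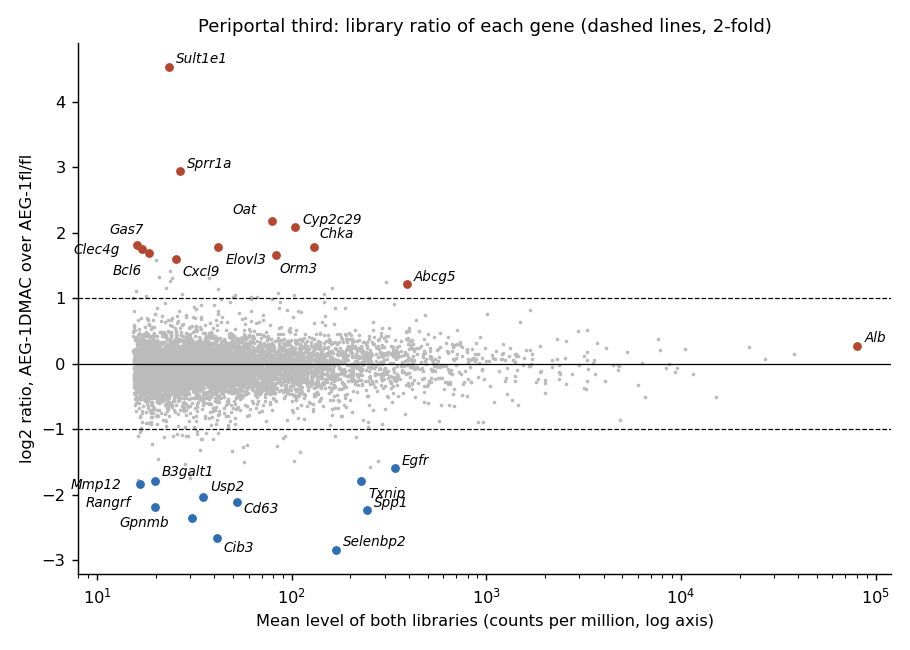
Log2 ratio of the library labelled AEG-1DMAC over that labelled AEG-1fl/fl (vertical axis) against the mean CPM of both (horizontal log axis) for each gene with at least 200 counts in PP hepatocytes, with dashed lines at 2-fold. Of the 6657 points 35 lie on or above the upper line and 47 on or below the lower, and labelled genes run from Sult1e1 at 4.54 to Selenbp2 at -2.85.

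The genes named next had the 10 highest and the 10 lowest ratios among those with at least 200 counts in PP hepatocytes and at least 20 in each library. Several of the 10 highest were pericentral or were counted in other cells too. Oat, ornithine aminotransferase and a gene of the score, had 878 and 177 counts, 129 (121 to 138) and 28.5 (24.5 to 33.0) CPM, a log2 ratio of 2.18 (1.95 to 2.42). Cyp2c29 had 1139 and 245 counts, 168 (158 to 178) and 39.5 (34.7 to 44.7) CPM, a log2 ratio of 2.09 (1.89 to 2.29). Both lay below their levels in the leukocyte check cells, 286 and 73.9 CPM for Oat and 235 and 51.0 CPM for Cyp2c29. Within PP hepatocytes Cyp2c29, which the score did not use, went from 50.6 through 125 to 300 CPM and from 13.7 through 28.4 to 73.7 CPM away from the PP end, so the last step stood above the check cells. Clec4g, a lectin of sinusoidal endothelium, had 177 and 48 counts (log2 1.75, 1.29 to 2.24) and stood at 218 and 94.7 CPM in the macrophage check cells. Cxcl9, a chemokine induced by interferon gamma, had 258 and 78 counts (1.60, 1.23 to 1.98), of which 73 of the first fell in 1 cell. Its ratio without the top cell of each library was 1.31, while in macrophage check cells it went the other way at 62.0 and 96.1 CPM. The part of other cells in these values was not tested.

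The remaining 6 of the 10 highest were the following. Elovl3, which elongates very long chain fatty acids, had 439 and 117 counts, 64.6 (58.7 to 71.0) and 18.8 (15.6 to 22.6) CPM, a log2 ratio of 1.78 (1.48 to 2.08). Chka, choline kinase alpha, had 1361 and 363 counts, 200.4 (190 to 211) and 58.5 (52.6 to 64.8) CPM, a log2 ratio of 1.78 (1.61 to 1.95), or 1.65 without the top cell of each library, which held 171 and 19 counts. Orm3, an orosomucoid of the acute phase, had 859 and 248 counts, 126 (118 to 135) and 40.0 (35.1 to 45.2) CPM, a log2 ratio of 1.66 (1.46 to 1.87). The transcriptional repressor Bcl6 had 191 and 54 counts (1.69, 1.25 to 2.16), and Gas7 had 169 and 44 counts (1.81, 1.33 to 2.32). In the leukocyte check cells Elovl3 stood at 51.2 and 7.25 CPM, and Orm3 at 34.7 and 8.38 CPM, lower than in PP hepatocytes of the same library. The highest ratio under this rule belonged to Sprr1a, a cornified envelope gene seen in injured epithelium, with 319 and 38 counts (2.94, 2.45 to 3.47), but 147 of the 319 counts came from 1 cell. It was 2.34 without the top cells and turned to -0.61 when the score left out Cyp2e1 and Cyp2f2.

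Among the 10 lowest genes, Selenbp2 (chr3:94693556-94704413, plus strand), a selenium-binding protein of hepatocytes, had 279 and 1833 counts, 41.1 (36.4 to 46.2) and 295 (282 to 309) CPM, a log2 ratio of -2.85 (-3.03 to -2.66). Cib3, a calcium- and integrin-binding protein, had 76 and 440 counts, 11.2 (8.82 to 14.0) and 70.9 (64.4 to 77.8) CPM, a log2 ratio of -2.66 (-3.03 to -2.31). Txnip, a brake on glucose uptake and thioredoxin, had 691 and 2197 counts, 102 (94.3 to 110) and 354 (339 to 369) CPM, a log2 ratio of -1.80 (-1.92 to -1.67). In leukocyte check cells Selenbp2 stood at 10.4 and 37.6 CPM and Cib3 at 1.65 and 7.02 CPM, below PP hepatocytes, while Txnip stood above them at 528 and 642 CPM. Rangrf, a Ran-binding factor, had 48 and 201 counts (-2.20, -2.68 to -1.74), the clock-linked ubiquitin protease Usp2 had 93 and 347 counts (-2.03, -2.38 to -1.70), and the galactosyltransferase B3galt1 had 60 and 190 counts (-1.79, -2.24 to -1.37). For these 6 genes the libraries' Poisson intervals did not overlap. The genes were picked for the size of their ratios, so this is no support for a difference between genotypes.

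The other 4 of the 10 lowest are known from macrophages or bile duct cells. Spp1 had 579 and 2497 counts, 85.3 (78.5 to 92.5) and 402 (387 to 418) CPM, a log2 ratio of -2.24 (-2.37 to -2.11), and -2.17 without the top cells, of which that in the library labelled AEG-1fl/fl held 328 counts. Gpnmb, a lysosomal glycoprotein of lipid-laden macrophages, had 68 and 318 counts (-2.35, -2.75 to -1.97), with 93 of the 318 in 1 cell and a ratio of -2.00 without the top cells. The tetraspanin Cd63 had 133 and 525 counts (-2.11, -2.40 to -1.83), and the macrophage elastase Mmp12 had 49 and 160 counts (-1.84, -2.33 to -1.37). In the macrophage check cells the same 4 genes were lower too, with Spp1 at 42.5 and 310 CPM, Gpnmb at 325 and 1511 CPM, Cd63 at 123 and 366 CPM, and Mmp12 at 222 and 820 CPM. Spp1 stood above those cells in PP hepatocytes of each library, and the other 3 stood below them. The part of other cells in these values was not tested.

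Gene lists were read over genes with at least 50 counts in PP hepatocytes, where the median log2 ratio of all 9592 genes was -0.06. Over 16 functional lists, which hold 276 such genes, 12 genes were at least 2-fold higher and 12 at least 2-fold lower, 4.35% each way, against 0.844% and 1.87% of all 9592 genes. The lists were chosen with results of these data known, so nothing particular to them is read from these shares. Of all genes 97.3% lay within 2-fold, and a list whose members all do is near that share. The lists of urea cycle, amino acid breakdown and glucose genes held none of these. Beside them, of the 19 other PP markers 18 lay within 2-fold (median 0.07), and Cdh1, E-cadherin, was lower at 131 and 297 counts (-1.31, -1.62 to -1.01). Of 8 urea cycle genes 8 lay within 2-fold (median -0.04, a sign that 3 of 10 alternatives turned). Ass1 was the highest at 23587 and 15163 counts, 3474 (3429 to 3518) and 2443 (2404 to 2482) CPM, a log2 ratio of 0.51 (0.48 to 0.54). Cps1 stood at 1810 and 1981 CPM (-0.13, -0.17 to -0.09), Arg1 at 1230 and 1171 CPM (0.07, 0.03 to 0.12) and Otc at 314 and 243 CPM (0.37, 0.27 to 0.47).

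Of 31 genes of amino acid breakdown 31 lay within 2-fold, 24 of them above 0 (median 0.16). Agxt, which detoxifies glyoxylate, had 779 and 371 counts (0.94, 0.76 to 1.12), and Gnmt, which uses up S-adenosylmethionine, had 14641 and 7533 counts, 2156 (2121 to 2191) and 1214 (1186 to 1241) CPM, a log2 ratio of 0.83. At the other end Bhmt, which remethylates homocysteine, had 143 and 193 counts (-0.56, -0.88 to -0.24). The PP markers on this list were split, with Hal at 0.51 (0.41 to 0.61), Gls2 at 0.36 (0.26 to 0.47) and Sds at 0.04 (-0.01 to 0.09). Hal, Gls2 and Sds are genes of the score and are counted among the 31, so the choice of the cells bears on their ratios. All 17 genes of gluconeogenesis, glycolysis and fructose use also lay within 2-fold (median -0.09). The gluconeogenic G6pc stood at 202 (191 to 213) and 381 (366 to 397) CPM, a log2 ratio of -0.92 (-1.01 to -0.82), and Pck1 had a log2 ratio of -0.36 (-0.39 to -0.34). Both of these gluconeogenic genes were thus lower in the library labelled AEG-1DMAC.

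**Figure D4:**
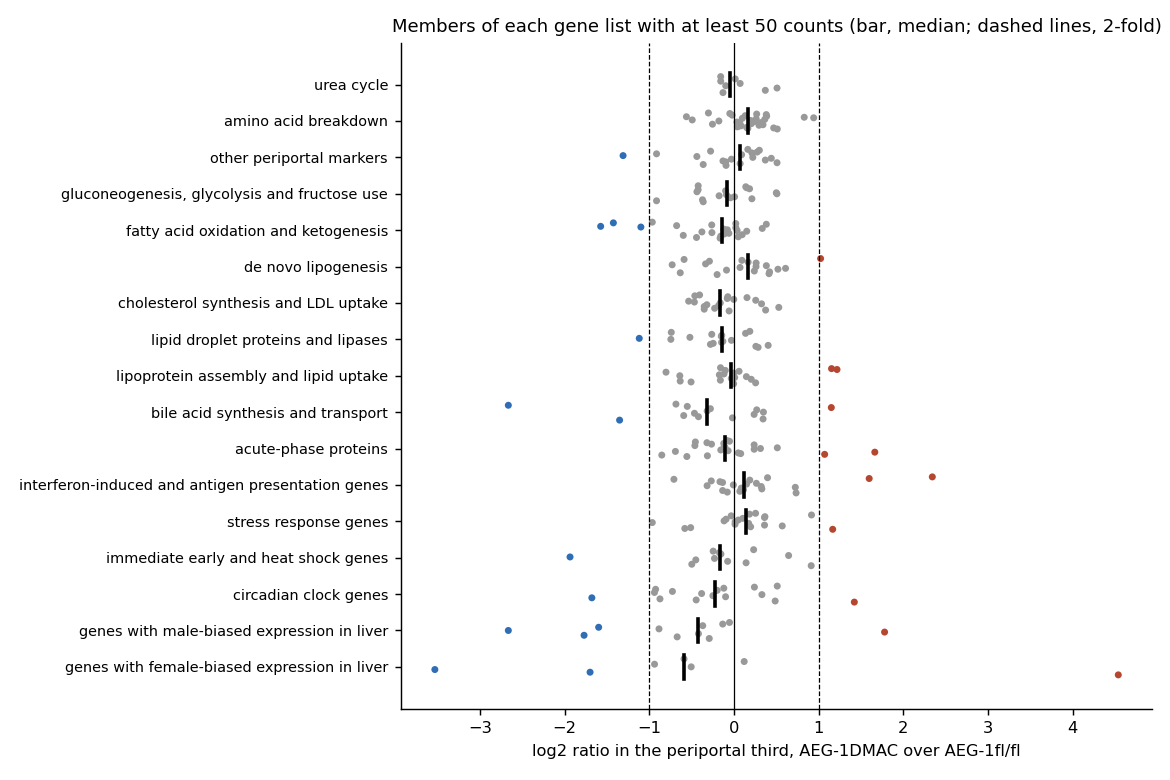
Log2 ratio of the library labelled AEG-1DMAC over that labelled AEG-1fl/fl in PP hepatocytes (horizontal axis, dashed lines at 2-fold) for each member with at least 50 counts of 17 gene lists (vertical axis), with black bars at the list medians. The urea cycle and amino acid breakdown lists lie wholly between the lines, and the outlying points include Sult1e1 at 4.54 and Acot3 at -3.53.

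In fat metabolism, 21 of 24 genes of fatty acid oxidation and ketogenesis lay within 2-fold (median -0.14) and 3 were lower. Cyp4a10, which hydroxylates fatty acids at the end of the chain, had 861 and 2345 counts, 127 (118 to 136) and 378 (363 to 393) CPM, a log2 ratio of -1.58 (-1.69 to -1.46). Pdk4, which shuts pyruvate out of oxidation, had 44 and 108 counts (-1.43, -1.97 to -0.91), and the acyl-CoA thioesterase Acot1 had 124 and 243 counts (-1.10, -1.42 to -0.78). All 3 are known targets of PPAR alpha, the receptor for fatty acids. The activity of this receptor was not tested, and over the list 8 genes were above 0 and 16 below. Of 19 lipogenesis genes 18 lay within 2-fold (median 0.17). Fasn, fatty acid synthase, stood at 836 and 584 CPM (0.52, 0.46 to 0.58) and Scd1 at 27710 and 26383 CPM (0.07, 0.06 to 0.08). Pnpla3, a lipase linked to fatty liver, was higher on few counts, 80 and 36 (1.02, 0.44 to 1.63), and Fads1 was the lowest at -0.73 (-0.85 to -0.62). Among 17 lipid droplet genes G0s2, which blocks triglyceride breakdown, was lower with 910 and 1807 counts (-1.12, -1.24 to -1.0), while the droplet coats Plin2 and Plin4 stood at 0.28 (0.22 to 0.35) and 0.40 (0.33 to 0.47). All 19 genes of cholesterol synthesis lay within 2-fold (median -0.16), from Pmvk at 0.53 (0.25 to 0.81) to Nsdhl at -0.54 (-0.96 to -0.11).

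The list of lipoprotein and lipid uptake genes (19 measured, median -0.03) held 2 higher genes, Abcg5 and Abcg8, whose proteins pair to pump sterols into bile. Abcg5 had 3708 and 1459 counts, 546 (529 to 564) and 235 (223 to 247) CPM, a log2 ratio of 1.22 (1.13 to 1.30). Abcg8 had 1507 and 620 counts, 222 (211 to 233) and 99.9 (92.2 to 108) CPM, a log2 ratio of 1.15 (1.02 to 1.29). Both were likewise higher in PC hepatocytes, at 1.68 and 1.31. The genes lie head to head on chromosome 17, Abcg5 on the minus and Abcg8 on the plus strand, and the 109 bases between their RefSeq starts (chr17:84683012-84683120, GRCm38.p6, plus strand) are shown because both members of this pair were higher. Capitals mark a TATA box read on the minus strand.
Abcg5-Abcg8: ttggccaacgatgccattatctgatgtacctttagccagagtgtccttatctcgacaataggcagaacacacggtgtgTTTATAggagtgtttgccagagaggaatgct
In bile acid metabolism (15 measured, median -0.32), Cyp7a1, the rate-limiting enzyme of bile acid synthesis, was lower with 421 and 982 counts, 62.0 (56.2 to 68.2) and 158 (148 to 168) CPM, a log2 ratio of -1.35 (-1.52 to -1.19). Nr0b2, the receptor SHP that represses Cyp7a1, was higher with 393 and 162 counts, 57.9 (52.3 to 63.9) and 26.1 (22.2 to 30.4) CPM, a log2 ratio of 1.15 (0.88 to 1.42). In PC hepatocytes the ratios of Cyp7a1 and Nr0b2 were -0.80 and 1.45. A link between these genes was not tested. The uptake transporter Slco1a1 was lower on few counts, 15 and 87 (-2.67, -3.56 to -1.87).

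Of 23 acute-phase genes 21 lay within 2-fold (median -0.11), and the 2 higher ones were Orm3, given above, and the constitutive serum amyloid Saa4 with 1344 and 585 counts (1.07, 0.93 to 1.21). The inducible Saa1 had 7428 and 9990 counts (-0.56) and Saa3 had 456 and 753 (-0.85, -1.02 to -0.68), so the serum amyloids differed in direction. Of 21 interferon-induced and antigen presentation genes 2 were higher (median 0.11), Cxcl9 and Rsad2. Rsad2, the antiviral viperin, had 61 and 11 counts (2.34, 1.40 to 3.42), 20 of the 61 in 1 cell, but the opposite ratio in PC hepatocytes at -1.69 (-2.18 to -1.22). H2-D1, of antigen presentation, was the lowest at -0.71 (-0.89 to -0.53). Of 20 stress genes only Atf3 passed 2-fold at 211 and 86 counts (1.17, 0.80 to 1.54), with 92 counts in 1 cell and 0.47 without the top cells. Fgf21, a stress hormone of the liver, had 144 and 257 counts (-0.97, -1.27 to -0.67). Among 12 immediate early and heat shock genes Ier3 was lower on few counts, 12 and 42 (-1.94, -3.0 to -0.98), and Fos was the highest at 0.91 (0.42 to 1.42).

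Of 16 clock genes 14 lay within 2-fold, 1 was higher and 1 lower. Arntl, the positive arm of the clock, had 41 and 14 counts, 6.04 (4.33 to 8.19) and 2.26 (1.23 to 3.78) CPM, a log2 ratio of 1.42 (0.52 to 2.41). Per3, of the negative arm, had 96 and 281 counts, 14.1 (11.5 to 17.3) and 45.3 (40.1 to 50.9) CPM, a log2 ratio of -1.68 (-2.03 to -1.34). Just within 2-fold were the output factor Dbp with 731 and 1282 counts (-0.94, -1.07 to -0.81) and the repressor Ciart with 95 and 165 counts (-0.93, -1.31 to -0.55). Over the 16 genes measured the median was -0.22, with 11 below 0, against a median of -0.06 over all genes with at least 50 counts. Among the 6657 genes with at least 200 counts, 3849 lay below 0. The hour of collection was not stated for either library, so it cannot be told apart from genotype. The windows before the RefSeq starts of Ciart (chr3:95882229-95882478) and Per3 (chr4:151044666-151044915), both on the minus strand of GRCm38.p6, were chosen because they held the E-box CACGTG or the D-box TTATGTAA, which clock factors are known to bind and the capitals mark. The windows of Arntl, Dbp and Usp2 were also searched, held neither box and are not printed.
Ciart: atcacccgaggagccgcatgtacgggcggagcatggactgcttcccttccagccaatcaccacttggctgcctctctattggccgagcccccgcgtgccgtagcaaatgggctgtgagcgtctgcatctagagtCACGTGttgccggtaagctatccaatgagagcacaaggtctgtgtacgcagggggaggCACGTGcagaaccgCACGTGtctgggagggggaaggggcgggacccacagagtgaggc
Per3: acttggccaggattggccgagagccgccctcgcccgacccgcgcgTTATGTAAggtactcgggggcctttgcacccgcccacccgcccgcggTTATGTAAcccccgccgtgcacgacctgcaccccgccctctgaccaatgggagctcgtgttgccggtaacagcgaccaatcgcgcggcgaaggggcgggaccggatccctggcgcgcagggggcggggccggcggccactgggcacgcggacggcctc
The Ciart window held the E-box 3 times, found in 6.02% of all windows, and the Per3 window held the D-box 2 times, found in 0.819% of all windows. The FOXA core TGTTTAC, also searched on both strands, was in none of the windows printed here and in 3.17% of all. No motif searched overlapped another in these windows.

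Some sex-biased genes of the liver had large ratios, in both directions, on lists that were chosen with results of these data known. Sult1e1 (chr5:87575969-87591594, minus strand) had 305 and 12 counts, 44.9 (40.0 to 50.2) and 1.93 (0.999 to 3.38) CPM, a log2 ratio of 4.54 (3.71 to 5.51), above its 11.5 and 0.680 CPM in leukocyte check cells. Acot3, an acyl-CoA thioesterase, had 12 and 127 counts (-3.53, -4.52 to -2.68), and the monooxygenase Fmo2 had 34 and 101 (-1.70, -2.31 to -1.13). All 3 count as female-biased, so that list (7 measured, 4 of them within 2-fold, median -0.59) was not of one direction. On the male-biased list (11 measured, 7 of them within 2-fold, median -0.42) Elovl3 was higher, and Slco1a1, Cyp4a12b and Egfr were lower. Cyp4a12b had 50 and 156 counts (-1.77). Egfr, the receptor of epidermal growth factor (chr11:16752203-16918158, plus strand), had 1137 and 3148 counts, 167 (158 to 177) and 507 (490 to 525) CPM, a log2 ratio of -1.60 (-1.70 to -1.50). Egfr went over the PP bins from 183 through 173 to 150 CPM and from 571 through 507 to 447 CPM, and in PC hepatocytes it stood at 111 and 478 CPM. All 4 Y-linked genes were counted in PP hepatocytes of both libraries, from 17.8 to 53.6 CPM and from 25.8 to 54.8 CPM, with a median ratio of -0.09. Of 20 genes chosen from those the study names, 2 were higher (Chka and Abcg5) and 5 lower (Egfr, Cd63, Spp1, Cyp7a1 and Txnip). Over all 9592 genes with at least 50 counts the shares higher and lower were 0.844% and 1.87%. Several of the 20 were picked by the study on these libraries, so they are no independent evidence. The study names further genes. Oat, Cyp1a2, Por and Col1a1 are examples of those that also passed 2-fold, and the list is not complete.

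Markers of other cells and zones were read in the same way, beside shares of 0.844% higher and 1.87% lower over all 9592 genes. Of 10 macrophage markers, 2 were higher (median 0.29), the scavenger receptor Marco with 133 and 36 counts (1.76, 1.22 to 2.33) and Vsig4 with 138 and 63 (1.0, 0.56 to 1.46). In the macrophage check cells Marco stood at 232 and 61.7 CPM and Vsig4 at 303 and 301 CPM. Of 6 endothelial markers Clec4g and Oit3, with 74 and 27 counts (1.32, 0.67 to 2.02), were higher (median 0.54). Of 7 stellate cell markers (median 0.04) the collagens Col1a1, with 94 and 288 counts (-1.74, -2.10 to -1.40), and Col3a1, with 202 and 521 (-1.50, -1.74 to -1.26), were lower. Sox9, of bile duct cells and of PP hepatocytes next to them, had 130 and 141 counts (-0.25, -0.60 to 0.11). The 4 lymphocyte and neutrophil markers measured were all lower (medians -1.27 and -0.99). Of 21 PC markers outside the score 4 were higher and 1 lower (median 0.13), and of 5 midlobular markers none passed 2-fold, with Hamp at -0.49 (-0.58 to -0.41) and Igfbp2 at -0.41 (-0.54 to -0.28). The medians of the macrophage and PC markers turned to -0.30 and -0.11 when the outer sixths of the ranking were taken as zones.

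The library ratios of PP hepatocytes were set beside those of PC hepatocytes, which held 6885489 and 6762584 counts. Among 7353 genes with at least 200 counts there, 79 (1.07%) were at least 2-fold higher and 70 (0.952%) at least 2-fold lower. Over 6572 genes measured in both zones the median size of the log2 ratio was 0.17 in PP and 0.22 in PC hepatocytes. Of these genes 71 were past 2-fold between libraries in PP hepatocytes and 117 in PC hepatocytes. In both zones and in the same direction 40 were past 2-fold, so many of these library ratios were not particular to PP hepatocytes. The ratio differed by at least 1 between zones for 41 genes (0.624%). No test of these differences was possible. The 10 genes chosen for the largest differences, among those with at least 200 counts in each zone, had ratios from -1.06 to 1.0 in PP hepatocytes. Cxcl1, a neutrophil chemokine, had 308 and 268 counts (0.07, -0.17 to 0.31) in PP hepatocytes and a ratio of -2.05 (-2.54 to -1.58) in PC hepatocytes. Fabp4, a fatty acid carrier of macrophages and fat cells, had 183 and 203 counts (-0.28, -0.58 to 0.02) against -1.82 in PC hepatocytes. The cytoskeletal linker Dst had ratios of -0.18 and -1.60, the transcription factor Maff 0.67 and -0.55, and Vsig4 1.0 and -0.44. For these 5 genes the PP ratio was the higher.

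In the opposite direction Nnmt, which methylates nicotinamide, had 804 and 591 counts, 118 (110 to 127) and 95.2 (87.7 to 103) CPM (0.31, 0.16 to 0.47) in PP hepatocytes, but 71.5 and 11.2 CPM (2.67, 2.32 to 3.04) in PC hepatocytes. Its PP to PC ratio was thus 0.73 in the library labelled AEG-1DMAC and 3.08 in the other. The carboxylesterase Ces3b had 2542 and 2839 counts (-0.29, -0.37 to -0.21) against 1.01 in PC hepatocytes, and the lysophospholipid transporter Mfsd2a had 1802 and 1363 counts (0.27, 0.17 to 0.38) against 1.56. The sodium channel subunit Scnn1a had ratios of -0.35 and 1.96, and the endothelial lipase gene Lipg -1.06 and 0.26. The PP genes of the score had library ratios of 0.86 (Hal), 0.90 (Sds), 1.07 (Cyp2f2) and 1.65 (Gls2) in PC hepatocytes, while in PP hepatocytes they ran from -0.22 to 0.51. In the leukocyte check cells Gls2 was at 47.3 and 18.1 CPM, above its 26.4 and 8.43 CPM in PC hepatocytes. The part of RNA from other cells in these PC values was not tested.

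**Figure D5:**
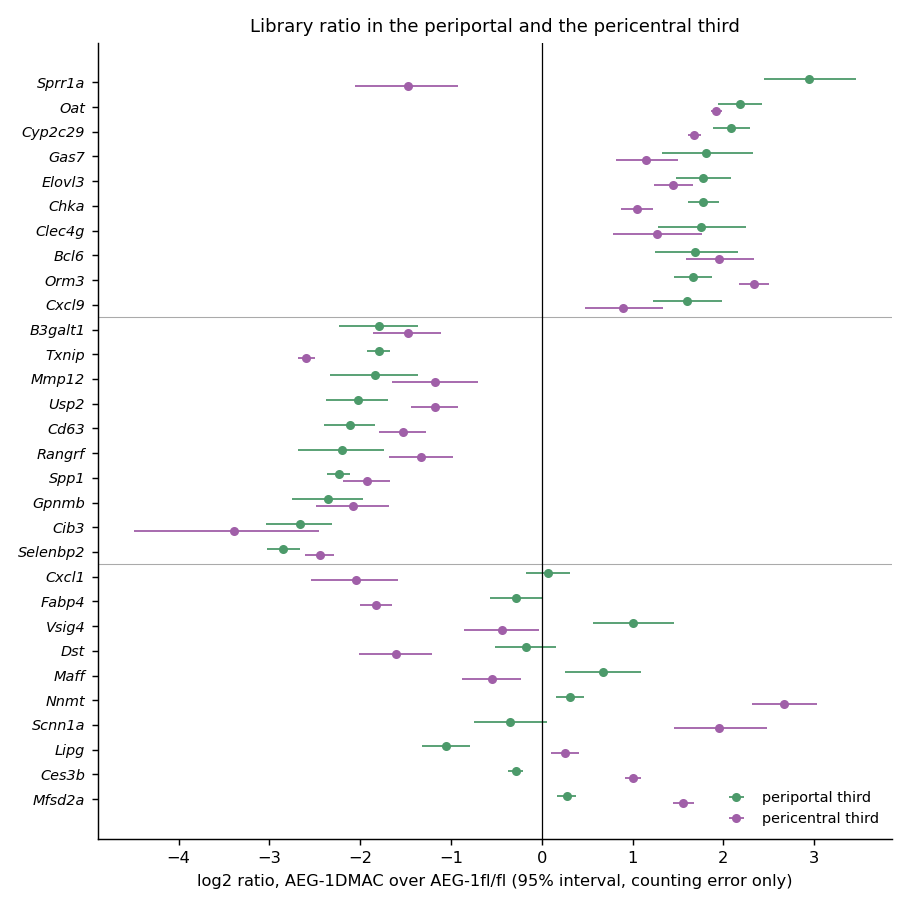
Log2 ratio of the library labelled AEG-1DMAC over that labelled AEG-1fl/fl (horizontal axis, bars are 95% intervals of counting error) in PP hepatocytes (green) and PC hepatocytes (purple) for the 20 genes with the most extreme PP ratios and the 10 with the largest difference between zones. Among the first 20, Sprr1a alone has ratios of opposite sign (2.94 and -1.47), and Nnmt has the widest gap of the last 5 (0.31 and 2.67).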

How the data were processed

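Flash-frozen liver was fixed, dissociated and profiled with probes for the mouse transcriptome. The authors deposited raw counts (molecules per gene and cell, not normalized) for 1 library per genotype, with the mm10 reference and Cell Ranger 7.1.0 named in the submitters' processing notes. Counts of the chosen cells were summed per library in pandas 2.3.3 and SciPy 1.17.1 (NumPy 2.4.6, Python 3.11.15), scaled to CPM and compared as log2 ratios without pseudocount, and figures were drawn with matplotlib 3.10.9. The ratio and its interval were tested on simulated data. No doublet caller was run. Probe counts are not per length, so levels of different genes were not compared.

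Named genes were those of the score, Aldh1b1, Mtdh, list members including the highest and lowest (3 members of the lists are not reported here), and the most extreme by size: 10 each way between libraries (at least 200 counts, 20 in each library), 8 each way between zones, 5 each way for the difference between zones and the 10 most variable after thinning. The score genes, markers and lists were chosen with earlier results of these data known. Gene positions are from GENCODE on GRCm38 and sequences from RefSeq. Alternatives planned (10) and chosen after seeing the data (1) were run.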

Additional observations from a re-analysis of the deposited data

Results flagged for a closer look

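The library ratio pointed in opposite directions in the zones, by at least 2-fold in each, for Sprr1a and Rsad2. The log2 ratio of Sprr1a was 2.94 in PP hepatocytes (319 and 38 counts) and -1.47 in PC hepatocytes (37 and 101 counts). Of the 319 counts in PP hepatocytes of the library labelled AEG-1DMAC, 147 came from 1 cell. The log2 ratio of Rsad2 was 2.34 in PP hepatocytes (61 and 11 counts, 20 of the 61 in 1 cell) and -1.69 in PC hepatocytes (49 and 155 counts). With 1 library per genotype these differences between zones were not tested.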

How the results depend on the processing

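No paired analysis was possible because each genotype has 1 library and no result comes from a test. Of 94 summary values under other settings 75 stayed within their limits (1.5 times for a count, the counting interval for a value) and 19 moved. With genes down to 50 counts, 81 genes were higher and 179 lower between libraries, and 86 higher and 201 lower between zones. With the outer sixths of the ranking as zones, 21 genes were higher and 31 lower between libraries, and the median PP to PC log2 ratio of the other PP markers was 1.80 and 2.29. With totals of 8000 to 30000 counts, 68 genes were lower in PP than in PC hepatocytes, 23 library ratios differed by at least 1 between zones, and the marker median was 1.42 and 1.25. That median was 1.83 and 1.94 with centred ratios, 1.33 in the library labelled AEG-1DMAC with the score from thinned cells, and 1.42 there with at most 5% mitochondrial counts. In the library labelled AEG-1fl/fl it was 1.60 with the score without Cyp2e1 and Cyp2f2, 1.92 with under 1 per 10000 of genes of other cells, and 1.59 with cells weighted equally. The cause of these moves was not tested.

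Of the 20 genes with the most extreme library ratios, 19 kept their sign under all 10 alternatives, and Sprr1a turned to -0.61 with the score without Cyp2e1 and Cyp2f2. The medians of 9 lists changed sign under at least 1 alternative, the macrophage markers to -0.30 with sixths and the stellate cell markers to -0.46 with under 1 per 10000 of genes of other cells. The setting without the top cell of each gene, and all settings for the difference between zones, were chosen after seeing the data. Depth limits the reading to genes with at least 50 counts in PP hepatocytes.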
